A study of Mus musculus with 3 samples.

Results

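Interferon-induced neutrophils are blood neutrophils that carry RNA of genes switched on by interferons. They were picked here from the authors' cluster 0 of the 2 blood tables as cells with a count of at least 3 of the 5 genes Ifit1, Ifit3, Isg15, Rsad2 and Rtp4. The rule found 353 such cells, called members below, among 2780 cells of cluster 0, 7713 blood cells with a clear hashtag and 16328 deposited cells of the whole series. The 5 genes chose the cells, so their levels are given as a description. The comparison of members with the other 2427 cells of cluster 0, called the rest, used the same RNA and is a description as well.

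Single-cell RNA, antibody tags and hashtags were read from 1 pool of 8 hashed samples of female C57Bl/6 mice aged 2 to 3 months. The 4 blood samples are called naive Het and naive Hom, and metastasis-bearing Het and Hom. The last pair came from mice with brain metastases about 2 weeks after injection of E0771 breast cancer cells into the carotid artery, and the naive pair from mice without metastases. The series used Cx3cr1+/-, Cx3cr1-/-, CCR2+/- and CCR2-/- mice, and for blood the labels leave unsaid which gene Het and Hom refer to. Heparin blood was freed of red cells by lysis and not otherwise enriched. Whether a blood sample held 1 mouse or several is not stated. Each group was 1 sample, so no difference between groups was tested. The intervals are exact 95% intervals that cover counting error only, and mouse to mouse spread is unknown.

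Interferons are alarm cytokines of virus infection. Type I interferon binds the receptor IFNAR and activates factors such as STAT2 and IRF9, which bind interferon-stimulated response elements in promoters. The genes so induced block virus entry, RNA translation and replication, and some feed back to raise or stop the signal. Interferon gamma has its own receptor and is known for the GTPases of the Gbp and Irg families and for antigen presentation. Neutrophils, short-lived granulocytes that reach tissues first, are known to hold a subset with this RNA in mouse blood and marrow.

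The promoters of 5 genes of this programme are shown because they hold the short core of the response element. Each line gives 160 bases before the transcript start, 5′ to 3′ in the direction of the gene, from RefSeq on GRCm38.p6. Capitals mark that core, which is GAAA, any 2 bases and GAAA again, or its reverse complement, TTTC, any 2 bases and TTTC.

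Ifit1 (chr19:34640729-34640888, plus strand): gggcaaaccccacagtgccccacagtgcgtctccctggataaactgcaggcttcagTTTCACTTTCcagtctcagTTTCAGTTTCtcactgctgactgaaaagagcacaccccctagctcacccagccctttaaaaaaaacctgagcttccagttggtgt
Isg15 (chr4:156200819-156200978, minus strand): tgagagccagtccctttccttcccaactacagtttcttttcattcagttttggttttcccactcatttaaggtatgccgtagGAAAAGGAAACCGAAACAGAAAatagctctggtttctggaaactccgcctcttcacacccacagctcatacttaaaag
Rsad2 (chr12:26456453-26456612, minus strand): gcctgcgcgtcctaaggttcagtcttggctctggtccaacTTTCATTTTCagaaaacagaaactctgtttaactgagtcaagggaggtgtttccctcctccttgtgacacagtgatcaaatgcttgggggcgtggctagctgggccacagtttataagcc
Irgm1 (chr11:48871421-48871580, minus strand): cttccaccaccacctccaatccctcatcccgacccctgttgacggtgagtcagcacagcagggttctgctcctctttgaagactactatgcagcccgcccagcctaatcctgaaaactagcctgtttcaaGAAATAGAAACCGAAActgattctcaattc
Gbp7 (chr3:142530176-142530335, plus strand): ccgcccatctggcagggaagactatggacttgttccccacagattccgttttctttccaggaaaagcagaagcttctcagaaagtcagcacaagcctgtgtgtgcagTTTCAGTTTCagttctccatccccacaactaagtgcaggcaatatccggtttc

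Isg15 has 3 overlapping matches that start 78, 72 and 66 bases before the transcript start, and Ifit1 has 2, at 104 and 85 bases. Irgm1 has 2 overlapping matches at 30 and 24 bases, Gbp7 has 1 at 53 bases and Rsad2 has 1 at 120 bases. Ifit1, Isg15 and Rsad2 belong to the rule. Irgm1 and Gbp7 do not. The motif was also counted over windows from 250 bases before to 50 bases after the start, on both strands. Of the 45 other genes that were at least 1.5-fold higher in members in all 4 samples, 38 had a RefSeq promoter. The motif stood in a promoter of 18 of these 38 genes (47.4%). It stood in a promoter of 5.23% of the 2771 measured genes that had one, and of 3.99% of all 27025 genes with one. The shorter gamma-activated site TTCNNNGAA stood in a promoter of 5 of the 38 (13.2%), of 7.98% of these measured genes and of 9.55% of all genes with a promoter. A match is a stretch of letters and not a measured binding site.

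Cluster 0 held neutrophil RNA, in members as in the rest. S100a8, a subunit of the calprotectin that neutrophils store, was at 991, 753, 847 and 710 per 10000 corrected counts in members of Het and Hom naive blood and of Het and Hom metastasis-bearing blood (the order in which the 4 samples are listed below). In the rest it was at 991, 776, 873 and 744. Csf3r, the G-CSF receptor, was between 27.6 and 29.4 in members and between 29.8 and 30.7 in the rest. The authors' antibody gate for Ly6C and Ly6G held 88.9%, 94.7%, 94.0% and 97.3% of members and 92.3%, 95.9%, 95.2% and 96.7% of the rest. Of the 4 interferon marker genes Ifit3, Rsad2, Isg15 and Slfn4, all were found in members of every sample, with a summed level of 22.4 to 35.6 against 2.36 to 8.86 in the rest. Of these 4 genes 3 are in the rule, so only Slfn4 bears on the label on its own.

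Markers of other blood cells were low in members. The summed levels were 2.22 to 5.63 for 6 B cell genes (2.27 to 7.01 in the rest), 2.55 to 4.29 for 8 Ly6c-high monocyte genes (3.22 to 3.45), 0.709 to 1.31 for 8 Ly6c-low monocyte genes (1.30 to 2.00), 0.426 to 0.646 for 8 dendritic cell genes (0.247 to 0.321) and 0.232 to 0.472 for 6 T cell genes (0.333 to 0.528). Of the dendritic cell genes 4 to 6 were at 0 in members, depending on the sample. Red cell genes were uneven: the 6 genes summed to 53.6 in members and 15.2 in the rest of naive Het blood, to 1.10 and 23.8 in naive Hom, to 4.02 and 1.22 in metastasis-bearing Het and to 1.35 and 1.78 in metastasis-bearing Hom blood. A single naive Het member held 3165 of the 3233 counts, and a single metastasis-bearing Het member 64 of 85. Without these cells the members' sums were 1.14 and 1.02, below the rest, so members stood above the rest only through 1 cell in each of the 2 samples. No cell was left out of the rest, so the lower sums are not a like comparison. The part of these 2 members in the results was not tested.

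Raw depth was a little higher in members. The median was 3411, 3446, 3448 and 3613 UMIs per member and 2928.5, 2742.5, 3093 and 3160 per cell of the rest. The members' corrected counts summed to 603585, 253997, 211465 and 474048, so the 57 naive Hom and 50 metastasis-bearing Het members give the least precise values. The 2 blood tables were normalised separately by the authors. Over 845 barcodes that stood in both, which are left out here, the median log2 difference between the tables was -0.02 and 13 of 10486 genes differed by 1.5-fold or more. Of 1640 and 2060 deposited cells of cluster 0 in naive and metastasis-bearing blood, 1172 and 1608 were kept, because the other barcodes also stood in another table or had less than 0.5 of their hashtag counts from the table's own hashtags.

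The share of members in cluster 0 was lowest in metastasis-bearing Het blood. Members were 135 of 795 cells in naive Het blood, a share of 17.0% (14.4 to 19.8). They were 57 of 377 cells in naive Hom blood, 15.1% (11.7 to 19.1). They were 50 of 800 cells in metastasis-bearing Het blood, 6.25% (4.67 to 8.16), and 111 of 808 cells in metastasis-bearing Hom blood, 13.7% (11.4 to 16.3). The interval of the metastasis-bearing Het sample overlapped none of the others, while the other 3 overlapped each other.

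**Figure D1:**
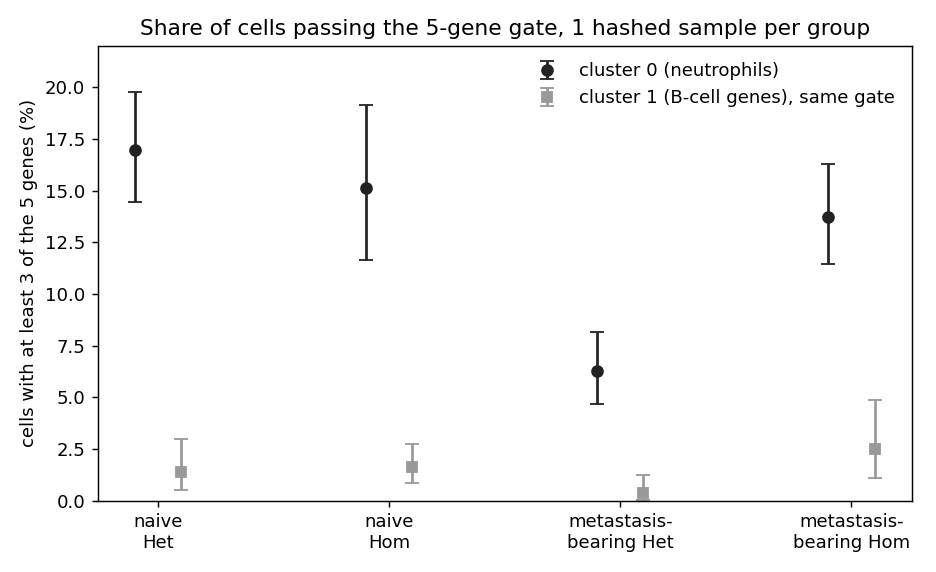
Share of cells with at least 3 of the 5 genes, in percent, in each of the 4 blood samples. Circles are cluster 0, squares are the cluster with B cell genes under the same rule, and bars are exact 95% intervals for counting error. The metastasis-bearing Het sample stands at 6.25%, below the intervals of the other 3 samples, and the B cell cluster stays at or below 2.49%.

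Between genotypes, the share in metastasis-bearing blood was 7.49 percentage points higher in Hom than in Het (4.50 to 10.5), a ratio of 2.20. In naive blood it was 1.86 points lower in Hom than in Het, with an interval from -6.31 to 2.90 that holds 0. Between conditions, the Het share was 10.7 points lower with metastases than without (interval of the difference -13.9 to -7.55), a ratio of 0.368. The Hom share differed by -1.38 points (-6.01 to 2.93). These 4 differences share samples: the metastasis-bearing Het sample stands in both that lie away from 0. Cluster 0 itself was 46.3%, 19.1%, 38.6% and 41.5% of the clear cells of the samples, so naive Hom blood had the fewest neutrophils by share, and the share of members was not lowest there.

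The order of the samples was also read with other rules. With at least 2 of the 5 genes the shares were 35.7%, 26.3%, 14.0% and 28.7%, and with at least 4 they were 7.30%, 7.43%, 2.38% and 5.32%. With 5 other interferon-induced genes (Ifit2, Oasl2, Irf7, Zbp1 and Usp18; at least 3 found) they were 7.80%, 7.16%, 2.12% and 5.07%. Between the quartiles of the raw UMI totals of each table they were 17.9%, 13.3%, 6.71% and 14.0%. The metastasis-bearing Het sample was lowest under each of these rules, while the order of the other 3 samples changed. Of the cells picked by the 5 other genes, 56.5%, 63.0%, 64.7% and 63.4% were members, and these cells were 25.9%, 29.8%, 22% and 23.4% of the members.

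The same rule in other clusters shows the background. In cluster 1, which carried the B cell genes Cd79a and Ms4a1, it held 1.38%, 1.61%, 0.349% and 2.49% of its cells; their median depth was 4677.5, 4865, 4257 and 4260 UMIs, deeper than the neutrophils. Whether B cells made this RNA themselves was not tested. In the monocyte cluster with Ly6c2 and Ccr2 it held 16.6%, 15.4%, 8.39% and 9.96% of cells, at 10772 to 14413 UMIs. At depths so unlike those of neutrophils the levels of the clusters are not compared. Between samples, metastasis-bearing Het blood was lowest in the B cell and monocyte clusters too, with intervals that overlapped those of the other samples. In the T cell cluster with Cd3e it was not lowest, at 4.20%, 2.98%, 3.65% and 2.27%. The B cell value rested on 2 of 573 cells, and whether the low share reached beyond neutrophils was not tested.

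Each of the 5 genes of the rule was found least often in metastasis-bearing Het blood, in neutrophils and in the B cell cluster alike. Isg15, a ubiquitin-like protein that is joined to other proteins, was found in 42.6%, 31.8%, 15.5% and 28.2% of cluster 0 cells, against 5.50%, 6.32%, 3.14% and 4.67% of B cell cluster cells. Rtp4, a chaperone of receptors, was found in 44.3%, 36.9%, 24.1% and 42.9%, against 10.8%, 8.18%, 4.71% and 6.85%. Rsad2, which encodes the antiviral enzyme viperin, was found in 20.6%, 19.1%, 10.9% and 17.9%, against 2.29%, 1.49%, 0.873% and 1.87%. Ifit1, which binds foreign RNA caps, was found in 11.4%, 9.02%, 5.0% and 8.91%, against 2.75%, 1.73%, 1.22% and 2.49%. Its relative Ifit3 was found in 7.67%, 11.7%, 3.88% and 7.30%, against 3.90%, 4.58%, 3.49% and 9.35%. In metastasis-bearing Het blood the Ifit3 shares were near equal, and in metastasis-bearing Hom blood the B cell cluster had the higher one. Whether single Ifit3 counts in these 2 samples were background was not tested, and the B cell cluster was the deeper one. In cluster 0 cells with Ifit3, Isg15 was found in 54.8% (metastasis-bearing Het) and 74.6% (Hom). In cells without Ifit3 it was found in 13.9% and 24.6%.

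The genes of the rule were found together. In cells with Ifit1, Isg15 was found in 78.0%, 76.5%, 62.5% and 65.3%, against 38.1%, 27.4%, 13% and 24.6% of cells without Ifit1. Rsad2 was found in 58.2%, 61.8% and 62.5% of cells with Ifit1 in the first 3 samples and in 36 of 72 such cells of metastasis-bearing Hom blood. It was found in 15.8%, 14.9%, 8.16% and 14.8% of cells without it.

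Members were the upper end of a graded range. In naive Het blood 281 cells had 0 of the 5 genes, 230 had 1, 149 had 2, 77 had 3, 42 had 4 and 16 had all 5. In metastasis-bearing Het blood the numbers were 511, 177, 62, 31, 14 and 5. The summed level of 57 other interferon-pathway genes was 151 per 10000 in naive Het cells with 0 of the genes and 398 in those with all 5. It went from 106 to 348 in naive Hom, from 137 to 343 in metastasis-bearing Het and from 163 to 335 in metastasis-bearing Hom blood. Just outside and just inside the rule, at 2 and 3 genes, it was 213 and 262, 146 and 172, 157 and 196, and 201 and 231. No step in this sum separates members from the rest. The sum includes Ifitm1 and Ifitm2, which are abundant in members and the rest alike, and was not taken without them. Median depth also differed along this range, from 2783 UMIs at 0 genes to 3794 at 5 in naive Het blood and from 3041 to 3823 in metastasis-bearing Hom blood, and its part in the range was not tested.

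**Figure D2:**
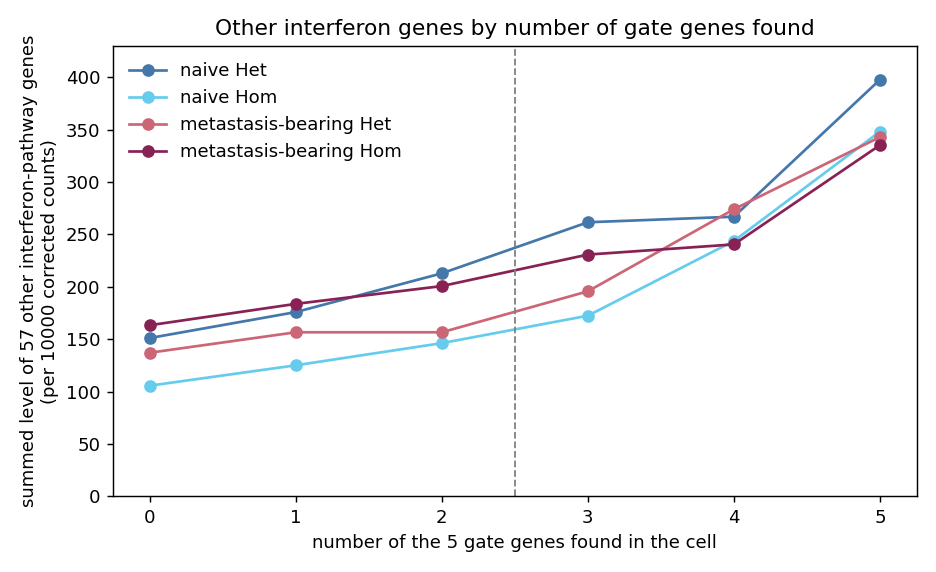
Summed level of 57 interferon-pathway genes outside the rule, per 10000 corrected counts, against the number of the 5 genes found in a cell, with 1 line per blood sample. The dashed line marks the rule of at least 3 genes. The sum includes the abundant genes Ifitm1 and Ifitm2. The level goes up with the number of genes found in all 4 samples (151 to 398 in naive Het), apart from equal levels at 1 and 2 genes in metastasis-bearing Het blood.

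Against the rest, members of all 4 samples carried more RNA of a set of genes that holds many known interferon targets. Of 3481 genes measured in all 4 samples, 49 (1.41%) were at least 1.5-fold higher in members in every sample and 3 (0.0862%) at least 1.5-fold lower. Among the 49 were 4 genes of the rule; Ifit3 was too scarce for the minimum of 5 expected counts in each sample. In single samples, 8.49%, 12.1%, 9.34% and 9.06% of the genes measured were 1.5-fold higher and 15.7%, 14.0%, 16.3% and 12.5% lower. Of the 45 genes outside the rule, 30 stood in the gene lists used here and 15 did not, among them Rnf213, Trafd1 and Ddx60. With the cells picked by the 5 other interferon-induced genes, 16 genes were higher in all samples, 14 of them among the 49, and after thinning every cell to 1000 corrected counts 3 of 290 measured genes were. The 5 other genes chose their cells and were not left out of this count, and Irf7 and Oasl2 are among the 49. Most of these cells were also members, so the shared genes are no independent support.

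The rule's own genes were far apart by construction. Ifit1 was at 4.14, 4.65, 4.07 and 3.97 per 10000 in members and at or below 0.111 in the rest. Isg15 was at 11.4, 11.3, 7.90 and 6.54 in members and at 1.97, 1.12, 0.471 and 0.914 in the rest. Ifit3 was at 2.52, 6.77, 2.41 and 3.63 in members, highest in naive Hom, and its near-identical copy Ifit3b at 1.86, 3.54, 2.27 and 2.59. Reads from the 3′ ends of such copies can be split between them, so the level of either is uncertain.

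Schlafen genes led the genes outside the rule. This family holds regulators of growth and of virus replication in immune cells. Slfn5 was at 7.31, 6.42, 5.34 and 3.82 in members and at 1.72, 0.644, 0.432 and 0.718 in the rest, a log2 ratio of 2.09, 3.29, 3.61 and 2.40. It was found in 96 of the 135 naive Het members and 28 of the 50 metastasis-bearing Het members. Slfn8 had log2 ratios of 1.99, 2.06, 2.43 and 2.26. Slfn4, known from myeloid cells, was at 15.9, 10.4, 6.90 and 7.13 in members and at 6.45, 2.78, 1.59 and 2.28 in the rest. The naive samples were the higher ones in both sets of cells, and naive Het rest cells had nearly the Slfn4 level of members from metastasis-bearing mice. Slfn1 and Slfn2 differed less, by 0.43 to 0.84 and 0.40 to 0.50. Of 5 Schlafen genes measured, 3 were 1.5-fold higher in all samples, with a median log2 of 1.77 against -0.04 over all genes measured. Schlafen genes lie side by side and are alike, so counts can be split among them.

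**Figure D3:**
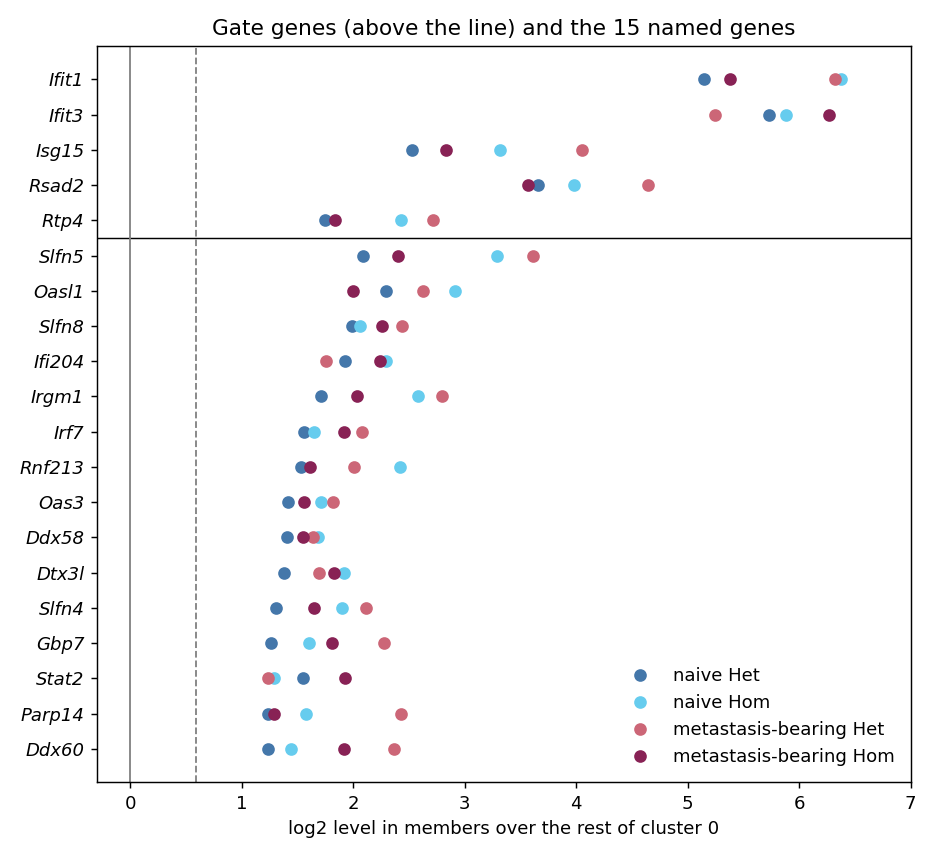
Log2 ratio of the level in members over the rest of cluster 0, 1 point per blood sample, for the 5 genes of the rule (above the line) and the 15 other genes with the highest ratio in their least extreme sample. The dashed line marks 1.5-fold. All points of the 15 genes lie between 1.23 and 3.61.

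Antiviral effectors had 7 of 11 measured genes higher in all 4 samples, with a median log2 of 1.08. Oasl1, which slows translation of the Irf7 message, was at 1.82, 1.18, 1.51 and 1.31 in members and at 0.368, 0.146, 0.240 and 0.324 in the rest. Oas3, which makes the 2′-5′ oligoadenylates that activate RNase L, was at 5.05, 3.70, 3.45 and 3.23 against 1.89, 1.12, 0.977 and 1.09. Members stood above the rest in every sample for both. Ifitm3, a membrane protein that stops virus fusion, was at 35.4, 25.6, 28.5 and 25 against 17.9, 11.3, 10.1 and 13.5, while its neighbours Ifitm1 and Ifitm2 had log2 ratios of only -0.07 to 0.55 and -0.00 to 0.36. Ifi27l2a, a small mitochondrial protein, was at 19.8, 31.0, 17.0 and 20.9 against 11.3, 12, 3.76 and 7.68. Samhd1, which breaks down nucleotides that viruses need, was below 1.5-fold, at 0.23 to 0.58. Scarce effectors such as Xaf1, Cmpk2 and Ifit2 missed the minimum. Cmpk2 was at 1.61, 2.05, 0.851 and 1.08 in members, and Ifit2 rested on 14, 10, 3 and 3 cells.

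Genes of the ISG15 and PARP group had 5 of 7 measured genes higher, with a median of 1.30. Dtx3l and Parp9, which act as a pair of ubiquitin and ADP-ribose enzymes, had log2 ratios of 1.38 to 1.92 and 1.10 to 2.14. Parp14, another ADP-ribose enzyme, had 1.23 to 2.42, and Isg20, an RNA exonuclease, 1.08 to 2.33. Socs3, a feedback inhibitor of STAT3, was near equal, at 0.09, 0.23, -0.42 and -0.14. Usp18, which takes ISG15 off proteins and damps the receptor, was too scarce for the minimum and stood at 0.762, 0.787, 0.520 and 1.10 in members against 0.205, 0.0805, 0.0833 and 0.107.

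Of 4 measured nucleic acid sensors, 2 were higher. Ddx58, the RNA sensor RIG-I, was at 1.87, 1.46, 1.47 and 1.65 against 0.706, 0.447, 0.468 and 0.559. Ifi204, a DNA sensor, was at 3.30, 3.31, 1.66 and 1.67 against 0.862, 0.666, 0.487 and 0.348. Its members from naive mice had about the same level in both genotypes, above both metastasis-bearing samples. Aim2, another DNA sensor, had ratios of -0.35 and 0.18 in naive blood and was found, with metastases, in 0 of 50 Het and 4 of 111 Hom members. Zbp1, a Z-nucleic acid sensor, missed the minimum, with log2 ratios of 2.08 to 3.03.

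Within the signalling pathway the transcription factors Irf7, Stat2 and Irf9 were higher in all samples, and the receptors were not. Irf7, the factor that amplifies type I interferon, was at 2.42, 2.80, 1.84 and 2.05 in members and at 0.817, 0.886, 0.432 and 0.538 in the rest. Stat2 had log2 ratios of 1.23 to 1.92 and Irf9 of 0.66 to 1.07. The receptor chain Ifnar1 had ratios of -0.05, 0.66, -1.08 and -1.10, and Ifnar2 of 0.21, -0.30, 0.17 and 0.33. Jak1, the kinase on both interferon receptors, had 0.04, -0.04, -0.38 and 0.07, and Stat3 -0.16 to 0.17. Over the 15 measured signalling genes the median was 0.19. Of 9 genes for interferons themselves 2 were in the tables and 0 passed the minimum.

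The GTPases known as interferon gamma targets were among the genes with high ratios. All 4 that were measured, Irgm1, Irgm2, Gbp2 and Gbp7, were at least 1.5-fold higher in every sample, with a median log2 of 1.73. Irgm1, whose promoter is printed above, was at 1.24, 2.17, 1.37 and 0.949 in members and at 0.375, 0.351, 0.192 and 0.228 in the rest. Gbp7 was at 1.97, 1.85, 2.22 and 1.48 against 0.817, 0.600, 0.455 and 0.417. Both are also known to respond to type I interferon.

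Antigen presentation differed in part. Tap1, which pumps peptides to MHC class I, was at 1.67, 1.93, 1.61 and 1.5 against 0.713, 0.820, 0.641 and 0.580, with log2 ratios from 1.22 to 1.36. Psmb9, a subunit of the immunoproteasome, had 0.71 to 1.00, and the non-classical molecules H2-T22 and H2-T23 had 0.77 to 0.88 and 0.59 to 0.94. The classical molecules H2-K1 and H2-D1 had only 0.08 to 0.39 and 0.15 to 0.22, and B2m, their light chain, 0.22 to 0.30. H2-D1 was at 35.9, 52.0, 36.5 and 40.3 in members and 32.3, 45.0, 32.1 and 34.5 in the rest, highest in naive Hom in both. Of 12 measured genes 4 were higher in all samples, with a median of 0.40. MHC class II genes had 0 of 4 in either direction and a median of -0.23.

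Chemokines and checkpoint ligands were mostly scarce. Lgals9, a galectin, was the 1 of 4 measured genes that was higher in all samples, at 0.72 to 1.29. Cd274, the checkpoint ligand PD-L1, missed the minimum and stood at 0.547, 0.945, 0.426 and 0.717 in members and 0.170, 0.373, 0.112 and 0.179 in the rest, found in 19, 14, 6 and 21 members. Cxcl10, an attractant of T cells, was found in 4, 1, 1 and 1 members, so no level can be read from it.

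**Figure D4:**
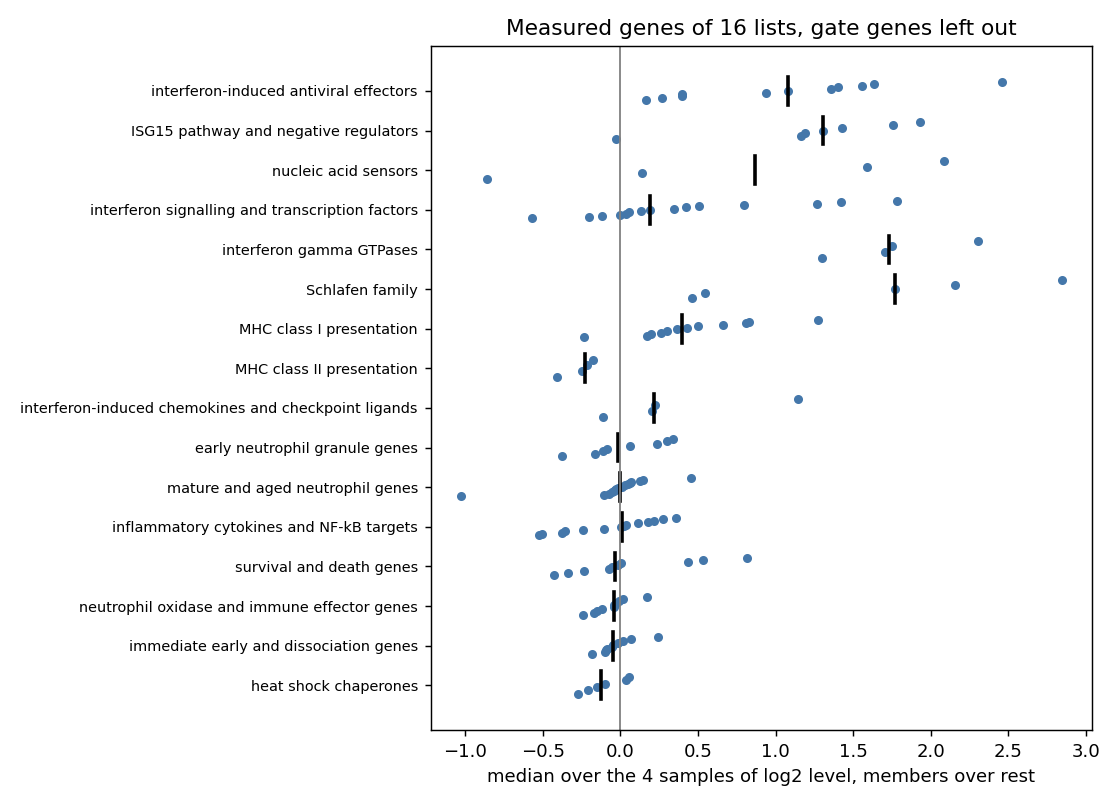
Median over the 4 samples of the log2 ratio of members over the rest, 1 point per measured gene, for 16 gene lists with the genes of the rule left out. Black bars are the medians of the lists. The Schlafen (1.77), gamma GTPase (1.73) and ISG15 pathway (1.30) lists lie highest, and the neutrophil, inflammatory, survival, early response and heat shock lists lie near 0.

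Neutrophil age and activation genes were read against all genes measured, of which 1.41% were 1.5-fold higher and 0.0862% lower in all 4 samples. The count in either direction was 0 of 8 early granule genes, 0 of 16 genes of mature and aged neutrophils, 0 of 14 inflammatory genes, 0 of 10 survival genes, 0 of 10 oxidase and effector genes, 0 of 10 early response genes and 0 of 6 heat shock genes, with list medians from -0.13 to 0.01. For lists of this size 0 is near that background, so the levels are given instead. Cxcr2, the receptor for exit from marrow, was at 24.5, 16.9, 18.0 and 19.5 in members and at 22.1, 17.7, 17.7 and 19.0 in the rest. Il1b, the cytokine interleukin 1 beta, was at 43.0, 45.9, 39.0 and 51.4 against 42.4, 37.4, 38.4 and 52.0. Fos, an early response gene that handling can induce, was at 14.2, 18.5, 19.8 and 18.7 against 14.8, 19.9, 18.7 and 19.2. Casp4, a caspase that senses bacterial lipopolysaccharide and is itself known as interferon-induced, was higher in members at 0.52, 1.17, 1.01 and 0.62, which is under 1.5-fold in naive Het.

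Cells with and without Mmp8, a collagenase of younger neutrophils, differed in their share of members in no single direction over the samples. The intervals of the shares overlapped in every sample, which does not show that the shares were equal. The share was 15.3% with Mmp8 (12 to 19.1) and 19.0% without it (15.1 to 23.4) in naive Het, 19.1% (14.0 to 25.2) and 10.4% (6.28 to 15.9) in naive Hom, 6.26% and 6.23% in metastasis-bearing Het, and 15.7% and 12.1% in metastasis-bearing Hom blood. Cells with Mmp8 had the higher median depth in each sample.

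Only 3 genes were 1.5-fold lower in members in all 4 samples, and all rested on few counts. They were the immunoglobulin chain Iglc3, Rnps1, a splicing factor, and Zer1, a ubiquitin ligase subunit. Rnps1 was at 0.0828, 0.157, 0.142 and 0.0844 in members, found in 5, 3, 3 and 4 cells, and at 0.181, 0.286, 0.295 and 0.217 in the rest.

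The 2 genes named in the genotypes were found in few members. Cx3cr1, the fractalkine receptor, was found in 10 of 135, 4 of 57, 1 of 50 and 16 of 111 members, at 7.41%, 7.02%, 2.00% and 14.4%, against 11.9%, 12.3%, 10.6% and 8.72% in the B cell cluster. In the rest of cluster 0 it was found in 9.70%, 10.9%, 10.9% and 11.5% of cells. The share of members lay above both only in metastasis-bearing Hom blood, which rested on 16 cells and was not tested. In the monocyte cluster its level was 3.18 in naive Het and 0.426 in naive Hom, and 2.20 and 0.277 in metastasis-bearing Het and Hom blood, so it was lower in both Hom samples. Ccr2 in the monocyte cluster was at 12.2, 12.6, 17.7 and 15.7. In members Ccr2 was found in 4.44%, 3.51%, 0% (0 of 50, which by the limit of 3 counts allows a share of up to 6.00%, and by the exact 95% interval up to 7.11%) and 8.11%, against 3.67% to 4.59% of the B cell cluster.

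Among members, the levels of the interferon genes followed no single order of the samples. The summed level of 24 antiviral effectors in members was 197, 160, 167 and 186, that of 7 Schlafen genes was 49.9, 46.4, 42.1 and 35.6, and that of 15 GTPases 8.17, 11.1, 7.80 and 5.86. In the rest, the Schlafen sum was 26.5, 22.8, 20.4 and 20.7 and the GTPase sum 2.99, 2.86, 1.58 and 1.69. Members of metastasis-bearing Het blood, the sample with the fewest members, had the higher sums of the 2 metastasis-bearing samples for Schlafen genes and GTPases. For antiviral effectors they had the lower sum. Much of the antiviral sum came from Ifitm1 and Ifitm2, neither of which was 1.5-fold higher in members than in the rest. In members they were at 47.6 and 45.03 in naive Het and at 21.3 and 32.4 in naive Hom blood. In metastasis-bearing Hom members they were at 56.96 and 42.8. The sum was not taken without these genes, so its order of the samples is not read as that of the other effectors.

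**Figure D5:**
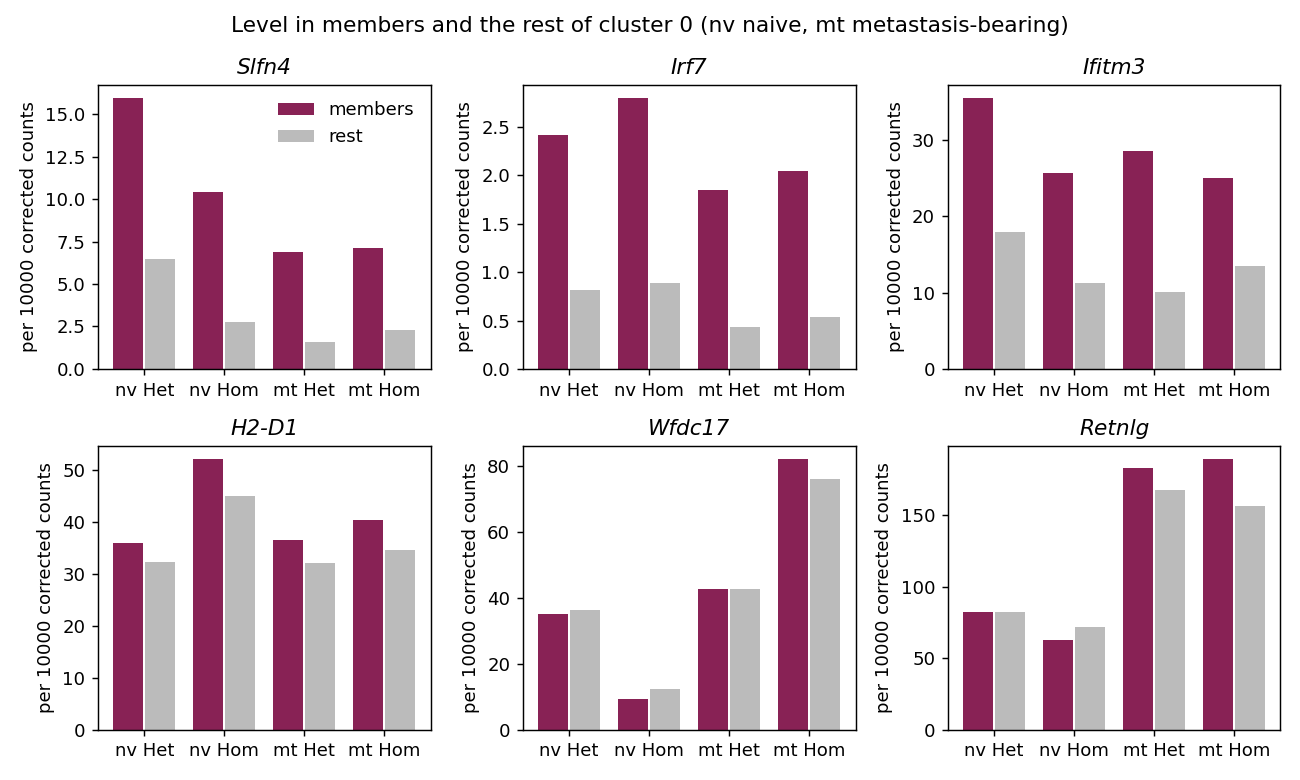
Level per 10000 corrected counts of 6 genes in members (dark bars) and the rest of cluster 0 (grey bars) of each blood sample. Slfn4, Irf7 and Ifitm3 are higher in members in every sample, and H2-D1 is a little higher in every sample. Wfdc17 and Retnlg differ more between samples than between members and the rest, where they follow no single direction.

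Between samples, members differed in genes such as Wfdc17, Retnlg and Cirbp, in which the rest differed as well. With at least 1.5-fold in either direction, 1429 of 3828 genes (37.3%) differed between naive Hom and naive Het members, against 31.0% of the genes measured in the rest. For metastasis-bearing Hom over Het it was 966 of 3583 (27.0%, rest 20.1%), for metastasis-bearing over naive Het 1129 of 3293 (34.3%, rest 31.7%) and for metastasis-bearing over naive Hom 1290 of 3998 (32.3%, rest 26.3%). These counts come from 1 sample each and low counts, so most single genes carry wide intervals. The 4 comparisons share samples.

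Wfdc17, a secreted protease inhibitor of activated myeloid cells, was at 35.2, 9.29, 42.5 and 82.0 in members and at 36.3, 12.4, 42.7 and 75.9 in the rest. Naive Hom was low and metastasis-bearing Hom high in both sets of cells. Retnlg, a resistin-like protein of neutrophils, was at 82.2, 62.7, 183 and 189 in members and 82.5, 71.5, 168 and 156 in the rest, so both metastasis-bearing samples lay above both naive ones. Igfbp6, a binding protein of insulin-like growth factors, was at 1.81 in naive Het and 0.157 in naive Hom members (log2 -3.34, -5.42 to -2.12), and at 1.84 in metastasis-bearing Hom members. Cd177, a surface protein of neutrophils, was found in 1 of 57 naive Hom and 26 of 111 metastasis-bearing Hom members, with log2 3.90 (2.07 to 9.96). In the rest the difference was 0.71 (0.28 to 1.17).

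In naive blood, Hom over Het, members also differed in Arl4c, a small GTPase (0.984 and 0.116, log2 2.85), Rilpl2 (log2 2.45), H2-Q7, a non-classical MHC class I gene (1.57 and 0.315, log2 2.24), Selenos (2.62) and Fip1l1 (2.53), all higher in Hom. The rest was higher in Hom as well for Arl4c (1.04) and Rilpl2 (0.99). For Selenos (0.37) and Fip1l1 (0.26) the intervals of the rest held 0. For Selenos 7 of 16 counts came from 1 cell, and its log2 was -1.69 with at least 4 of the 5 genes. H2-Q7 has near-identical neighbours, so its level is uncertain. Its log2 was 1.40 in the rest of cluster 0 and -0.18 in members after thinning. Lower in Hom was Atp6v0a1, a subunit of the vesicle proton pump (0.0787 and 1.33, log2 -3.72). Syt11 and Tmem268 were at 0 in naive Hom members and at 0.679 and 0.663 in naive Het, at least 5.75-fold and 5.61-fold higher in Het against a floor of 3 counts over the group. The rest was lower in Hom as well for Atp6v0a1 (-1.36), Syt11 (-1.04) and Tmem268 (-2.25). MHC class I genes had 5 of 13 measured genes higher and 0 lower in naive Hom members, with a median log2 of 0.46, and 0.52 in the rest. Over all genes measured 24.7% were higher and 12.6% lower in naive Hom members, with a median of 0.20.

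In metastasis-bearing blood, Hom over Het, the members of both samples had passed the same rule on interferon-induced genes. Like levels of such genes among members are therefore in part set by the rule, and the lists are given as a description. Antiviral effectors had 1 of 19 genes 1.5-fold higher and 0 lower in Hom, with a median of 0.09, and the GTPases had 0 of 7 higher and 1 lower, with a median of -0.32. Over all genes measured 16.1% were higher and 10.8% lower. In the rest the antiviral and GTPase lists had medians of 0.40 and 0.24. Also 1.5-fold higher in Hom members were 2 of 6 nucleic acid sensors, 2 of 14 signalling genes and 1 of 9 genes of the ISG15 group. In these lists 0 were lower, and of 5 Schlafen genes 0 differed in either direction. Stfa2, a stefin, was at 2.19 in Hom and 0.142 in Het members (log2 3.70, 2.36 to 6.25). Ngp, a granule protein of immature neutrophils, was at 2.00 and 0.142, but 76 of its 95 counts in Hom members came from 1 cell, and in the rest the log2 was -0.21. Gngt2, a G protein subunit, was higher in Hom (1.46 and 0.378, log2 1.87), as were Mif, the migration inhibitory factor (2.92), and Aldh3a2, an aldehyde dehydrogenase, at 0.38 against 0 (at least 2.68-fold). In the rest the log2 was 1.17 for Stfa2, 0.41 for Gngt2, 0.22 for Mif and -0.49 for Aldh3a2. Lower in Hom were Mirt1 (1.41 and 3.50, log2 -1.29), AU019990 (-2.26), Uvssa (-2.15), Gdpd3 (-1.72) and Basp1 (-2.28), for which 25 of 48 counts in Het members came from 1 cell. The rest had -0.33 for Mirt1, -0.60 for AU019990, -0.01 for Uvssa, -0.07 for Gdpd3 and -0.005 for Basp1.

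Between conditions within Het, members from metastasis-bearing blood had higher Cirbp, a cold-induced RNA-binding protein (1.84 and 0.249, log2 2.77), Plin2, the coat of lipid droplets (1.37 and 0.265, log2 2.27), Id2, a transcription inhibitor (2.51 and 0.613, log2 1.99), and Ccdc180 (log2 2.23). The rest differed in the same direction for all 4, by 2.07, 2.05, 1.52 and 0.45. Cxcl2, a neutrophil attractant, had a log2 of 2.61, with 23 of 54 counts from 1 cell. Lower with metastases were Acod1, which makes itaconate (0.378 and 1.71, log2 -2.10), Steap4, a metalloreductase (0.993 and 3.45, log2 -1.77), Dgat1, a triglyceride enzyme (-2.15), Gngt2 (-2.12) and Agap1, at 0 against 0.596 (at least 4.20-fold higher in naive Het). The rest was lower as well in Acod1 (-2.12), Steap4 (-2.39) and Dgat1 (-1.45), and less so in Gngt2 (-0.21) and Agap1 (-0.43).

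Within Hom, members from metastasis-bearing blood were higher in Wfdc17 (log2 3.14, 2.95 to 3.34), Retnlg (1.59, 1.51 to 1.67), Igfbp6 (3.33), Cd177 and Ngp, again with 1 cell holding most Ngp counts. The rest was higher as well in Wfdc17 (2.61), Retnlg (1.13), Igfbp6 (2.83) and Ngp (3.71). Members were lower in Ifit2 (0.0844 and 1.30, log2 -3.57), H2-Q7 (-2.88), Vdac1, a mitochondrial channel (-3.05), Nod1, a sensor of bacterial wall (-2.01), and Irs2, an insulin receptor substrate (-2.10). In the rest the log2 was -0.06 for Ifit2, -1.87 for H2-Q7, -0.11 for Vdac1, -1.11 for Nod1 and 0.51 for Irs2. Of the early granule genes 7 of 11 were 1.5-fold higher and 0 lower with metastases, with a median of 0.80, and 1.12 in the rest. A single metastasis-bearing Hom member held 76 of 95 Ngp, 21 of 27 Camp and 13 of 15 Ltf counts, and without it 5 of 9 measured genes were higher, with a median of 0.64. The GTPases had 5 of 7 lower and 0 higher, with a median of -0.91 in members and -0.80 in the rest. Over all genes measured 16.2% were higher and 16.1% lower in members. The tables of the 2 conditions were normalised separately, as noted for the barcodes they share.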

How the data were processed

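Single cells of 1 pool were sequenced as RNA, antibody tag and hashtag libraries. Reads were processed with Cell Ranger 3.1 on mm10, per the submitters' processing notes. Per gene and cell, the deposited blood tables give the natural log of 1 plus a count corrected with SCTransform by the authors, table by table. Back-transformed values were whole to within 1.18e-11, and raw counts were not used here. The deposited totals per cell are counts of UMIs and tags. Clusters and hashtag numbers are the authors' scores, and the hashtag groups and antibody gates are the authors' own labels. Seurat versions and cell filters are not given in the sources used here. No doublet caller was run; cells had to have a barcode in 1 table and at least 0.5 of hashtag counts from that table's hashtags.

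The planned use of 4 hashed samples allowed no test, since each blood group was 1 sample. Corrected counts were summed over cells and given per 10000. Log2 ratios used a pseudocount of 1 shared in proportion to the totals, and genes entered with at least 5 expected counts in the smaller set. Exact 95% Clopper-Pearson and conditional intervals cover counting error only, since molecules of 1 sample are no replicates. Python 3.11.15, numpy 2.4.6, pandas 2.3.3 and scipy 1.17.1 were used, and the ratios were checked on simulated data. The members, gene lists and alternatives were chosen with earlier results of these data known. The rule for named genes took the 15 highest and 10 lowest genes by their least extreme sample among those 1.5-fold apart in all 4 samples, and the 5 higher and 5 lower genes per sample comparison with the interval bound farthest from 1. Ribosomal, mitochondrial, immunoglobulin, haemoglobin and unnamed genes were left out of the ranking. The genes of the rule, Cxcl10, Cd274, Cx3cr1, Ccr2 and up to 6 genes per list were also named; the text gives a part of these. Iglc3, outside the ranking, was named after its values were seen. Some results are not reported here.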

Additional observations from a re-analysis of the deposited data

Results flagged for a closer look

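The difference in member share between Hom and Het had opposite directions in the 2 conditions: -1.86 percentage points in naive blood and 7.49 in metastasis-bearing blood, 9.35 points apart. With 1 sample per group this was not tested, and the counting interval of the naive difference held 0.

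Within members, 9 named genes had opposite directions of Hom over Het in the 2 conditions, also not tested. The log2 ratio in metastasis-bearing blood lay above that in naive blood by 6.55 for Ngp (mostly 1 cell), 4.42 for Igfbp6, 4.23 for Cd177, 2.92 for Steap4, 2.86 for Wfdc17 and 2.83 for Dgat1. It lay below by 3.07 for Rilpl2 (difference -3.07), by 2.42 for Ccdc180 (-2.42) and by 1.46 for Cirbp (-1.46).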

How the results depend on the processing

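The metastasis-bearing Het sample had the lowest member share under each of the 8 alternatives to the rule, and the Hom excess in metastasis-bearing blood and the Het deficit with metastases kept their direction. Of the other 2 differences, Hom minus Het in naive blood changed sign under 2 of these alternatives and metastasis-bearing minus naive Hom under 3. In the order naive Het and Hom, then metastasis-bearing Het and Hom, the shares were 35.7%, 26.3%, 14.0% and 28.7% with at least 2 of the 5 genes, 7.30%, 7.43%, 2.38% and 5.32% with at least 4, 11.7%, 6.21%, 4.29% and 9.64% in cells of every cluster with S100a8 and S100a9, 4.28%, 5.57%, 1.38% and 3.47% after thinning to 1000 corrected counts (which all 2780 cells reached) and 7.80%, 7.16%, 2.12% and 5.07% with 5 other genes. Hom minus Het in metastasis-bearing blood was then 14.7 points (2 genes), 2.95 (4 genes), 2.09 (thinned) and 2.95 (other genes). Metastasis-bearing minus naive Het was -21.7, -4.92, -7.45 (every cluster), -2.90 (thinned) and -5.67. Hom minus Het in naive blood was -9.46 with 2 genes, 0.131 with 4 and 1.29 thinned. Metastasis-bearing minus naive Hom was 2.45 with 2 genes, 3.42 over every cluster and 0.708 between the quartiles of UMI totals.

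The count of 49 genes higher in all samples was 31 with at least 10 expected counts, 112 without a minimum, 19 with at least 4 genes, 3 thinned (290 genes measured), 29 between the quartiles of UMI totals and 16 with the other 5 genes (14 of them shared with the 49). The other 5 genes were not left out of the 16. The count of 3 lower genes was 16 at 2 expected counts, 531 without a minimum, 7 with all deposited cells, 1 with the other 5 genes and 0 at 10 expected counts, with at least 4 genes, thinned or between the quartiles. The genes that differed between samples, in the order naive Hom over Het, metastasis-bearing Hom over Het, and metastasis-bearing over naive in Het and in Hom, were 2618, 2052, 2310 and 2524 at 2 expected counts, 709, 428, 577 and 629 at 10, and 199, 113, 108 and 247 thinned; with at least 4 genes they were 874 in naive blood and 612 in Het. Of 204 repeats of named genes against the rest, 164 stayed within 1 SD over samples and 0 changed direction. Of 280 repeats between samples, 231 stayed within the interval and 2 changed direction: Selenos (-1.69 with at least 4 genes) and H2-Q7 (-0.18 thinned). As an alternative chosen after seeing the data, the member with most red cell counts was left out, and no cell of the rest. The log2 of the red cell genes over the rest was then -3.74 in naive Het and -0.26 in metastasis-bearing Het blood. Leaving out the member with most early granule counts, also chosen after seeing the data, took 7 early granule genes to 5. No paired analysis was possible because the blood groups were 1 sample each and carry no replicate numbers. Depth limits scarce genes, and free RNA was measured only through the B cell cluster.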
